A study of Homo sapiens with 118 samples.

Results

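Transcript levels of the class II and class IV histone deacetylases (HDACs) were examined in human HepaRG cells exposed to 8 HDAC inhibitors. The members were taken by name from the whole table: every row whose gene symbol was HDAC4, HDAC5, HDAC7 or HDAC9 (class IIa), HDAC6 or HDAC10 (class IIb) or HDAC11 (class IV). This gave 13 rows, each a detector probe, of 22069 rows in all. HDAC6 had 4 probes, HDAC9 had 3, HDAC5 had 2, and HDAC4, HDAC7, HDAC10 and HDAC11 had 1 each. HepaRG is an established line from a human liver tumor that differentiates into a mixture of hepatocyte-like and biliary-like cells, and differentiated cryopreserved cells were used. The cells were exposed for 72 h, with fresh chemical every day, to 5 concentrations of each inhibitor, numbered C1 (lowest) to C5 (highest). Lysates were profiled by TempO-Seq, in which pairs of short detector probes anneal side by side on a transcript, are ligated and are counted by sequencing.

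C1 and C5 were 4.94 and 94.5 µM for scriptaid, 0.404778 and 23.5 µM for vorinostat, 0.001468 and 0.084 µM for panobinostat, and 0.018811 and 1.5237 µM for trichostatin A. They were 0.177222 and 3.9 µM for mocetinostat, 1.143333 and 44 µM for tacedinaline, and 0.041722 and 0.86 µM for apicidin. The dose labels of valproic acid ran from 100.478 to 3038, and their unit is not settled, since the exposure protocol lists far smaller numbers in µM. Scriptaid, vorinostat, panobinostat and trichostatin A are hydroxamates, mocetinostat and tacedinaline are benzamides, apicidin is a cyclic tetrapeptide and valproic acid is a short-chain fatty acid. Concentrations were not matched between chemicals. Of the 40 groups, 38 had 3 libraries, each from another of 3 HepaRG batches (B326, B330 and B303), and panobinostat C3 and trichostatin A C4 had 2. Scriptaid, tacedinaline and vorinostat lay on plate E and the other 5 chemicals on plate H, so that plate and chemical cannot be told apart. Solvent controls were not analysed here, and C1 of the same chemical was the reference in every comparison. Changes that C1 itself brought about could not be measured.

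HDACs remove acetyl groups from lysines. Class I enzymes (HDAC1, HDAC2, HDAC3 and HDAC8) act mainly on chromatin. Class IIa enzymes have little catalytic activity of their own; they bind MEF2 transcription factors, recruit the HDAC3-containing NCoR and SMRT corepressors, and leave the nucleus bound to 14-3-3 proteins when kinases such as salt-inducible kinases and CaM kinases phosphorylate them. HDAC6 is largely cytoplasmic, deacetylates alpha-tubulin and HSP90, and carries a ubiquitin-binding zinc finger used in aggresome formation. HDAC10 deacetylates polyamines, and HDAC11 removes long fatty-acyl groups from lysines. Hydroxamates chelate the catalytic zinc of class I and class IIb enzymes, whereas benzamides act mostly on class I enzymes.

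The 118 libraries held 1061359 to 5250260 counts, with a median of 3702007. In 3 libraries the highest correlation of log2 CPM (counts scaled to a library total of 1000000, after TMM adjustment of that total) with another library of the same group was under 0.9: scriptaid C4 of batch B303 (0.824), mocetinostat C2 of batch B303 (0.877) and trichostatin A C1 of batch B303 (0.882). Where a value named here turned direction, changed its call or moved by over 1.5 times without them, the value without them is given beside it. Markers of the labelled cells were present: the 9 hepatocyte markers summed to 13959 to 71170 CPM at C1. The lowest sum was that of trichostatin A C1 of batch B303, and without it the sums began at 38821 CPM. Biliary and progenitor markers summed to 63.1 to 161 CPM at C1, with EPCAM and CFTR at a median count of 0. Endothelial markers summed to 5.9 to 51.4 CPM and haematopoietic markers to 2.15 to 19.2 CPM at C1, and the defining markers CDH5, VWF, PTPRC, CD3E and SPI1 had a median count of 0.

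RefSeq (GRCh38.p14) listed promoter windows, from 250 bases before to 50 after a transcription start, for 6 of the 7 members, 16 windows in all. Shown here are windows of HDAC6, the member whose probes fell at the high concentrations, and of HDAC9, the member whose probes rose. All are on the + strand. The HDAC6 windows are those of its most upstream start, chrX:48801148-48801447, and its most downstream start, chrX:48801817-48802116. Capitals in them mark GC boxes (GGGCGG) and CCAAT boxes (CCAAT) on either strand. The HDAC9 window is that of its most upstream start, chr7:18086575-18086874, and capitals mark a match to the MEF2 consensus, the motif bound by the MEF2 factors that class IIa enzymes partner with.
HDAC6 upstream start: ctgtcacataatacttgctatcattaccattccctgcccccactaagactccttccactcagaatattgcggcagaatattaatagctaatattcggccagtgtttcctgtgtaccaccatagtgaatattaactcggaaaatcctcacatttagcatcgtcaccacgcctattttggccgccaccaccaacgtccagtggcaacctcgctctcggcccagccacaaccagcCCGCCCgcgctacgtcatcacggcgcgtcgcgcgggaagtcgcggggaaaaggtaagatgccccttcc
HDAC6 downstream start: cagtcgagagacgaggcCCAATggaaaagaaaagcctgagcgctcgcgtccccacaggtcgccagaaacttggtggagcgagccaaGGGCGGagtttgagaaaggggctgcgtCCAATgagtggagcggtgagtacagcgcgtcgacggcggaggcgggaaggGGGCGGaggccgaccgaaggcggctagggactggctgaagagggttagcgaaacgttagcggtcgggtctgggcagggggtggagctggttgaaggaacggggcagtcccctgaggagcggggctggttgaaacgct
HDAC9 upstream start: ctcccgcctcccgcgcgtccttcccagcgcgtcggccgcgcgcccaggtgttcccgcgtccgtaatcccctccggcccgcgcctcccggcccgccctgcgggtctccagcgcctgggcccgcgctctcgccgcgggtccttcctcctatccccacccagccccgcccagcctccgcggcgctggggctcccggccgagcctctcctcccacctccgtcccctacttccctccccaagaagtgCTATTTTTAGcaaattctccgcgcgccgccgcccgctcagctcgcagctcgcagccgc

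The upstream HDAC6 window held 1 GC box, beginning 18 bases before the start. The downstream HDAC6 window held 2 GC boxes and 2 CCAAT boxes, without overlap. Of all 35116 windows of this length, 45% held a GC box and 34.6% a CCAAT box. The HDAC9 window also held 3 GC boxes, left in lower case. The MEF2 match began 8 bases before the HDAC9 start, and such a match was present in 2.99% of all windows. The other 4 HDAC9 windows and those of HDAC4, HDAC6, HDAC7, HDAC10 and HDAC11 held no match to it. The E box CACGTG was also searched; it was present in 7.26% of all windows and, among the members, in 1 window of HDAC4. All motifs were searched on both strands. The labels do not tie a probe to a transcript start, so these windows describe the genes, not the probes.

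At C5, HDAC6 transcripts fell in every chemical but trichostatin A, and HDAC9 transcripts rose in apicidin, mocetinostat and tacedinaline. A probe was called when edgeR's quasi-likelihood test gave an adjusted p under 0.05 (Benjamini-Hochberg over all features tested) and the fold was at least 1.5 in either direction. Of the 13 member probes, 11 passed the filter on low counts in at least 1 chemical. HDAC5_90747, at 0 in 111 of 118 libraries with at most 4 counts, and HDAC9_14516, at 0 in 107 libraries with at most 6 counts, passed in none. HDAC7_22460 passed in 6 chemicals and the other 10 probes in all 8, which gave 86 member tests. Of these, 23 were called, against 25% of all tests over the 8 chemicals. The 18 falling calls comprised 17 of HDAC6 and 1 of HDAC7, where 13.4% of all tests were called lower. All 5 rising calls were of HDAC9, where 11.6% of all tests were called higher. The members as a set were therefore called about as often as other features, and all calls but the 1 of HDAC7 lay in HDAC6 and HDAC9.

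**Figure D1:**
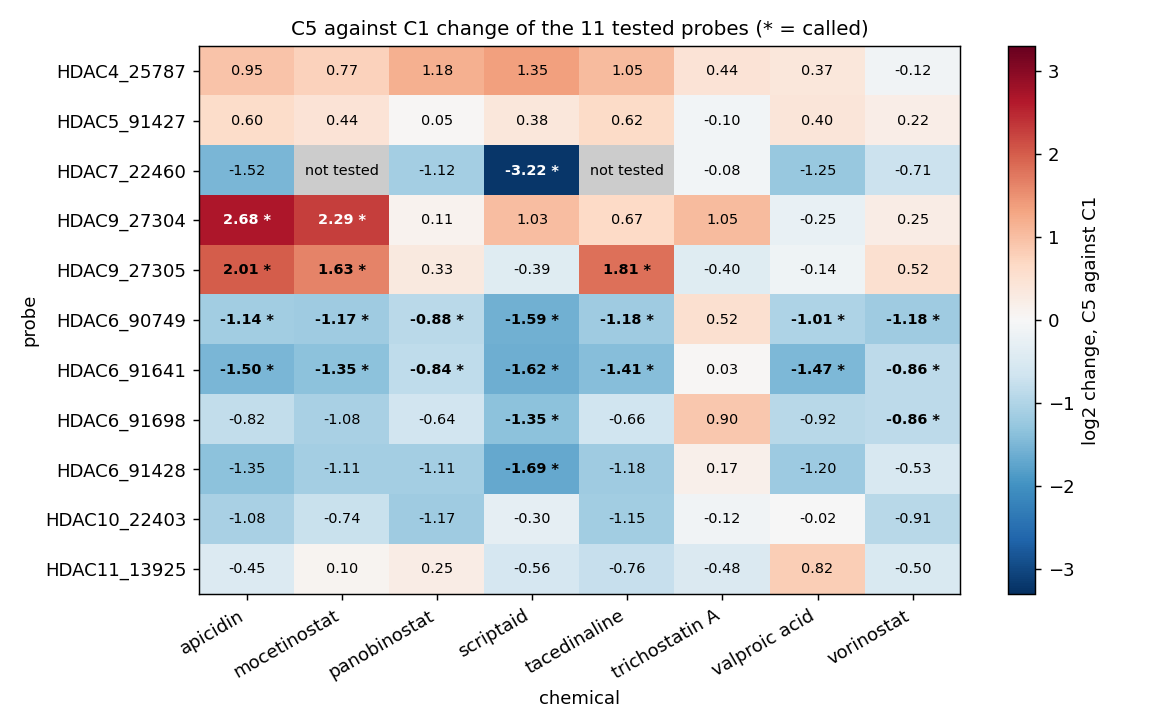
Log2 change at C5 against C1 of the 11 tested probes (rows) in each chemical (columns), from the edgeR fit of each chemical. Red is higher and blue lower at C5, a star marks a called change and grey a probe that was not tested. The HDAC6 rows are negative in all chemicals but trichostatin A, where HDAC6_91641 and HDAC6_91428 (0.03 and 0.17) turned to -0.19 and -0.23 without its C1 library of batch B303, and the called positive changes lie in the 2 HDAC9 rows.

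By chemical, 5 of 11 member probes were called in scriptaid (29.8% of all features), 4 of 11 in apicidin (28.8%), 4 of 10 in mocetinostat (30.5%), 3 of 10 in tacedinaline (38.8%) and 3 of 11 in vorinostat (47.5%). The count was 2 of 11 in panobinostat (16.2%) and 2 of 11 in valproic acid (11.1%). In trichostatin A, none of 11 was called by edgeR or DESeq2, and 0.0154% of all features were called. An unadjusted p under 0.05 was passed there by 2 of the 11 and by 1255 of 12993 features.

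HDAC6 was measured best by probe HDAC6_90749, with 356 to 4203 counts per library. Its level fell 1.84-fold to 3.01-fold at C5 in 7 chemicals. Among the hydroxamates, the C1 libraries of scriptaid held 675, 712 and 789 CPM and the C5 libraries 216, 201 and 282 CPM (log2 change -1.59, SE 0.346, adjusted p = 0.00189). For vorinostat, C1 was 718, 917 and 647 CPM and C5 291, 358 and 289 CPM (log2 change -1.18, SE 0.141, adjusted p = 1.79e-08). For panobinostat, C1 was 771, 706 and 686 CPM and C5 459, 377 and 349 CPM (log2 change -0.88, SE 0.151, adjusted p = 0.000243). In these 3 chemicals no C5 library reached a C1 library. The fourth hydroxamate was not called: trichostatin A held 705, 660 and 294 CPM at C1 and 905, 632 and 796 CPM at C5 (log2 change 0.52, SE 0.238, adjusted p = 0.508). Its groups overlapped, and its low C1 library, of batch B303, was the library that stood apart. Without that library the log2 change was 0.20 (SE 0.147, adjusted p = 0.611).

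HDAC6 also fell in both benzamides. Mocetinostat held 686, 657 and 661 CPM of HDAC6_90749 at C1 and 323, 238 and 288 CPM at C5 (log2 change -1.17, SE 0.211, adjusted p = 0.000543). Tacedinaline held 675, 646 and 548 CPM at C1 and 255, 287 and 249 CPM at C5 (log2 change -1.18, SE 0.138, adjusted p = 2.48e-09). In both, all C5 libraries lay below all C1 libraries. Apicidin held 883, 817 and 733 CPM at C1 and 434, 308 and 353 CPM at C5 (log2 change -1.14, SE 0.159, adjusted p = 1.41e-05). Valproic acid held 680, 746 and 806 CPM at C1 and 379, 365 and 363 CPM at C5 (log2 change -1.01, SE 0.118, adjusted p = 3.13e-06). These groups did not overlap either, so that the C5 libraries lay below the C1 libraries in 7 of 8 chemicals, a separation seen in 22.9% of all tests. Of 11288 features tested in all 8 chemicals, 4.27% were called lower in at least 7. Within each of the 3 HepaRG batches the direction was the same in these 7 chemicals. In scriptaid the call was lost without batch B330 (log2 change -1.51, adjusted p = 0.0664), whereas without the C4 library of batch B303 that stood apart it was -1.61 (SE 0.18, adjusted p = 7.49e-08).

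**Figure D2:**
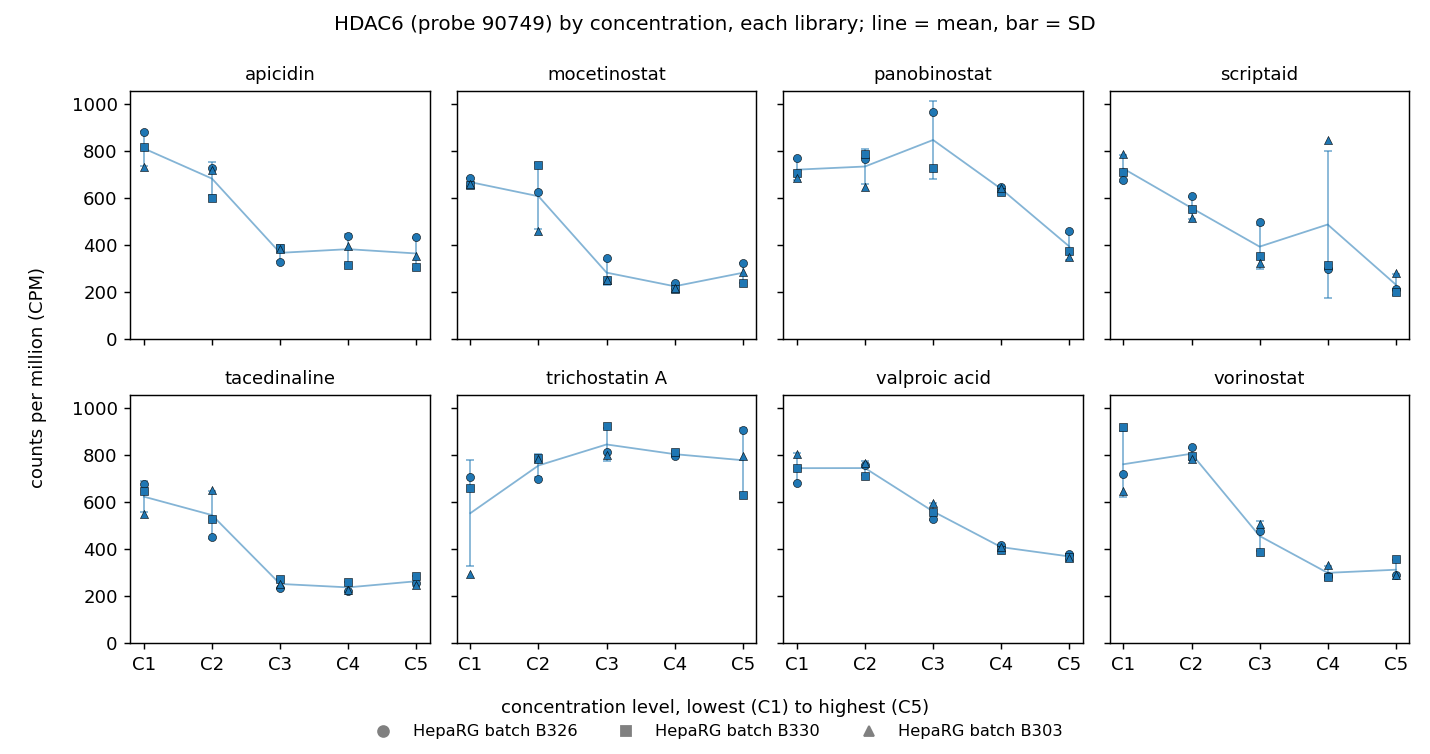
HDAC6_90749 in CPM (y axis, from 0) at C1 to C5 (x axis) in each chemical; each point is a library, its shape the HepaRG batch, the line joins group means and bars are the SD. At C5 the group means lay between 233 and 395 CPM in 7 chemicals and at 778 CPM in trichostatin A, and the triangles of scriptaid C4 (848 CPM) and trichostatin A C1 (294 CPM) lie far from the other libraries of their groups.

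Ordered by the mean level of HDAC6_90749 at C5, the chemicals were scriptaid (233 ± 43.3 CPM, SD, n = 3), tacedinaline (264 ± 20.1), mocetinostat (283 ± 42.9), vorinostat (313 ± 39.0), apicidin (365 ± 64.0), valproic acid (369 ± 8.96), panobinostat (395 ± 56.8) and trichostatin A (778 ± 137). Each of the first 7 differed from its neighbour by less than the sum of their SDs. Trichostatin A stood above all of them, with its lowest library (632 CPM) over the highest of the others (459 CPM).

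The fall of HDAC6_90749 was first called at different steps of the concentration series. None of the chemicals was called at C2. At C3 the fall was called in apicidin (log2 change -1.14), mocetinostat (-1.22), tacedinaline (-1.29) and vorinostat (-0.72). Valproic acid followed at C4 (-0.87), and panobinostat and scriptaid at C5. Without the scriptaid C4 library of batch B303, which held 848 CPM beside 300 and 316 CPM in the other batches, scriptaid was also called at C3 (log2 change -0.90, SE 0.176, adjusted p = 0.00167) and C4 (-1.28, SE 0.205, adjusted p = 0.000133). In mocetinostat, tacedinaline and vorinostat the change at C4 (-1.52, -1.36 and -1.30) was no smaller than at C5. In apicidin the change was -1.14 both at C3 and at C5. The steps between these levels and C5 were not tested.

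The other 3 HDAC6 probes pointed the same way with fewer counts. HDAC6_91641, with 25 to 352 counts per library, fell in the same 7 chemicals, by a log2 change of -0.84 in panobinostat to -1.62 in scriptaid (edgeR adjusted p between 9.94e-06 in tacedinaline and 0.0227 in panobinostat). In apicidin its C1 libraries held 68.9, 54.8 and 61.9 CPM and its C5 libraries 20.8, 22.7 and 21.8 CPM. Its C5 libraries lay below all C1 libraries in each of the 7. In trichostatin A it did not pass (log2 change 0.03, SE 0.318, adjusted p = 0.988), with C1 libraries at 56, 51.4 and 30.8 CPM and C5 libraries at 23.6, 41.8 and 75.3 CPM. Without the C1 library of batch B303 (30.8 CPM) its direction turned (log2 change -0.19, SE 0.301, adjusted p = 0.849). HDAC6_91641 lost its call without batch B326 in mocetinostat, panobinostat and vorinostat (adjusted p = 0.0686, 0.194 and 0.122), without batch B330 in mocetinostat, scriptaid and vorinostat (0.14, 0.0706 and 0.114) and without batch B303 in panobinostat (0.145).

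HDAC6_91698 was negative in 7 chemicals and called in scriptaid (log2 change -1.35, SE 0.498, adjusted p = 0.047) and vorinostat (-0.86, SE 0.339, adjusted p = 0.0333). In scriptaid it fell from 35.7, 33.9 and 23.3 CPM to 11.9, 15.9 and 6.77 CPM. The 2 calls were narrow: that of scriptaid was lost with upper quartile scaling (adjusted p = 0.0676), with the trend over concentrations (0.0639), without batch B326 (0.245) and without batch B330 (0.198), and that of vorinostat without batch B326 (0.121) and without batch B303 (0.29). DESeq2 also called it in apicidin (adjusted p = 0.0349) and mocetinostat (0.0217), and edgeR in mocetinostat without the C2 library that stood apart (log2 change -1.09, adjusted p = 0.0225). In trichostatin A every C5 library (32, 38.1 and 42.5 CPM) lay above every C1 library (27.7, 21.1 and 12 CPM), as held for 4.91% of all features. The change was not called (log2 0.90, SE 0.321, adjusted p = 0.414), nor was it without the C1 library of batch B303 (0.63, adjusted p = 0.411). HDAC6_91428, with 1 to 75 counts, was negative in the same 7 chemicals (in trichostatin A 0.17, and -0.23 without the C1 library of batch B303) and called in scriptaid (log2 change -1.69, SE 0.568, adjusted p = 0.0312), a call lost without batch B326 (0.125) and without batch B330 (0.278). With the HepaRG batch as a block it was also called in tacedinaline (log2 change -1.30, adjusted p = 0.0343), and without batch B326 in apicidin (-2.49, adjusted p = 0.00654). The 4 probes map to the same gene and are not replicates of a condition.

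Differences between chemicals in the C5 against C1 change were tested in 1 fit over all libraries for the 28 pairs of chemicals. Since concentrations were not matched, a difference is one between these concentration steps. Of 308 member tests, 24 (7.79%) were called, against 8.4% of all tests. Of the 77 tests in the 7 pairs with trichostatin A, 22 were called (28.6%), against 16.1% of all tests in those pairs. Of the 231 tests in the 21 other pairs, 2 were called (0.866%), against 5.83% of all tests. Without the 3 libraries that stood apart, 18 member tests were called in the pairs with trichostatin A and 5 in the other pairs. HDAC6_90749 differed in all 7 pairs with trichostatin A and in no other pair. Its change was lower than that of trichostatin A by 2.16 log2 units in scriptaid (scriptaid minus trichostatin A -2.16, SE 0.291, adjusted p = 2.94e-09) and by the least in panobinostat (-1.36, SE 0.288, adjusted p = 0.00113). Without the 3 libraries that stood apart these differences were -1.77 (SE 0.224, adjusted p = 3.37e-10) and -1.08 (SE 0.221, adjusted p = 0.000803), and all 7 stayed called.

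Between the other 7 chemicals the differences of HDAC6_90749 did not pass the test. The 2 benzamides differed by 0.01 (95% interval -0.56 to 0.57), and apicidin and mocetinostat by 0.09 (-0.47 to 0.66). Vorinostat and scriptaid, both hydroxamates, differed by -0.37 (scriptaid minus vorinostat, interval -0.94 to 0.19). Panobinostat and scriptaid differed by 0.80 (interval 0.24 to 1.36, adjusted p = 0.0617), and by 0.69 without the 3 libraries that stood apart (SE 0.208, adjusted p = 0.0145), which was then called. HDAC6_91698 differed in 6 pairs and HDAC6_91641 in 5, all of them with trichostatin A. Without the 3 libraries that stood apart, HDAC6_91698 lost its differences from tacedinaline (adjusted p = 0.0557) and valproic acid (0.0719), and HDAC6_91641 its difference from valproic acid (0.109).

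**Figure D3:**
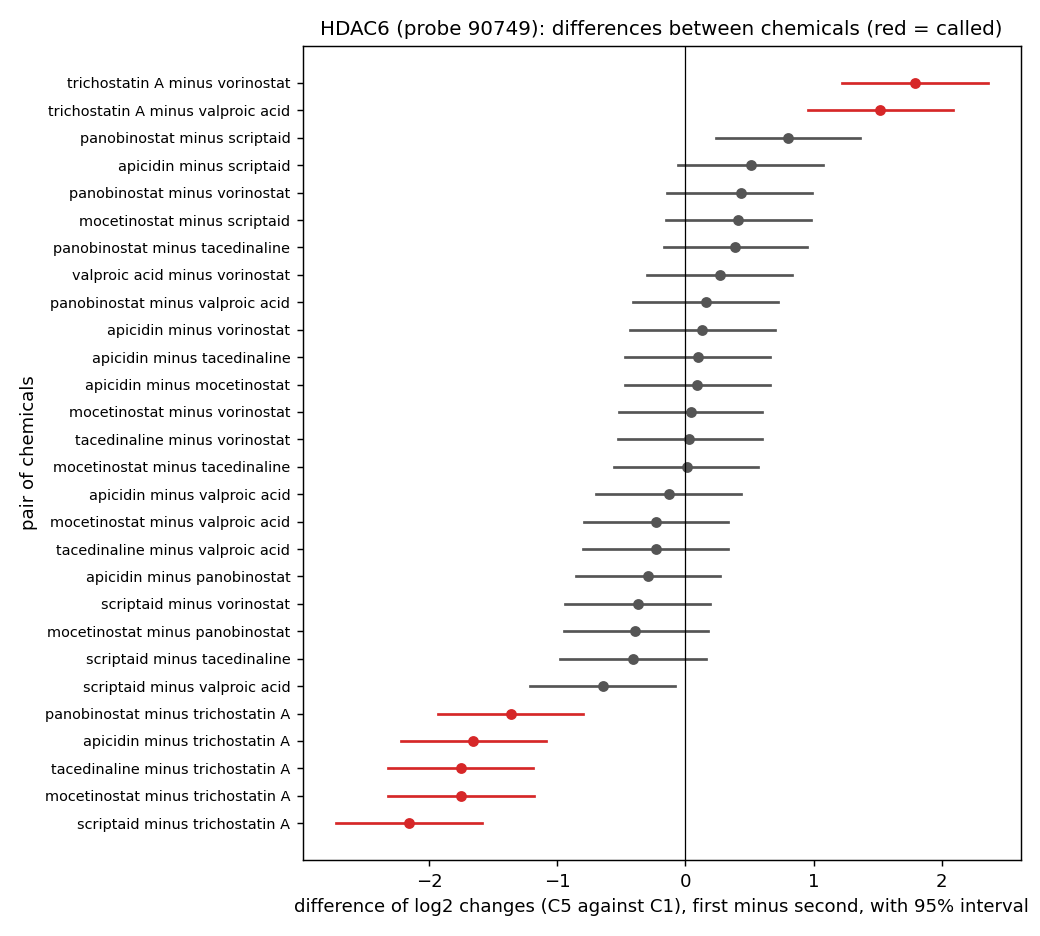
Difference between 2 chemicals in the C5 against C1 log2 change of HDAC6_90749 (x axis, first minus second chemical) for the 28 pairs (y axis); points are estimates, lines 95% intervals and red marks a called difference. The 7 red intervals are those of the pairs with trichostatin A.

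The features whose pattern over the 40 groups was most like that of HDAC6_90749, after the mean of each chemical was removed, were CALML4_13525 (Pearson r = 0.972), FABP1_2298 (r = 0.964) and HAO2_89824 (r = 0.962) among 11287 features with a mean of at least 1 log2 CPM. FABP1 is the liver fatty acid-binding protein, HAO2 a peroxisomal hydroxy acid oxidase and CALML4 a calmodulin-like protein. The other HDAC6 probes ranked 149 (HDAC6_91641, r = 0.907), 218 (HDAC6_91698, r = 0.894) and 1497 (HDAC6_91428, r = 0.733). The group means share libraries, depth and concentration series, and the correlations are a description.

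Hepatocyte markers were lower at C5 in the 7 chemicals in which HDAC6_90749 fell. Summed over 9 genes (ALB, APOA1, APOB, TTR, SERPINA1, TF, FGB, CYP3A4 and CPS1), they averaged 44245 CPM at C1 and 7378 CPM at C5 in scriptaid, 48842 and 3987 CPM in tacedinaline, and 42944 and 5412 CPM in vorinostat. The sums were 64045 and 8843 CPM in mocetinostat, 57987 and 19791 CPM in apicidin, 51150 and 19694 CPM in valproic acid, and 48234 and 26414 CPM in panobinostat. In trichostatin A they averaged 41908 CPM at C1 and 43392 CPM at C5, but the C1 mean rests on the library of batch B303 that stood apart. Its other C1 libraries held 54012 and 57754 CPM, and all C5 libraries (37621, 43350 and 49205 CPM) lay below both. Without the B303 library the log2 change of HDAC6_90749 was 0.20 and was not called. The summed markers were not tested. With all libraries, none of the 10 marker tests of trichostatin A was called at C5 (median log2 change 0.02). Of 80 tests of these genes at C5, 67 were called lower and none higher, by edgeR as by DESeq2. The low trichostatin A C1 library held 13959 CPM of these markers and 294 CPM of HDAC6_90749, beside 705 and 660 CPM of HDAC6_90749 in the other batches. The outlying scriptaid C4 library did not follow: it held 12828 CPM of the markers, near the 18396 and 16730 CPM of the other batches, with 848 CPM of HDAC6_90749 and 18, beside 72.5 and 32.8, CPM of HDAC6_91641. In lysates of a mixed culture, fewer hepatocyte-like cells and less RNA per cell cannot be told apart, and the part of either in the fall of HDAC6 was not tested.

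**Figure D4:**
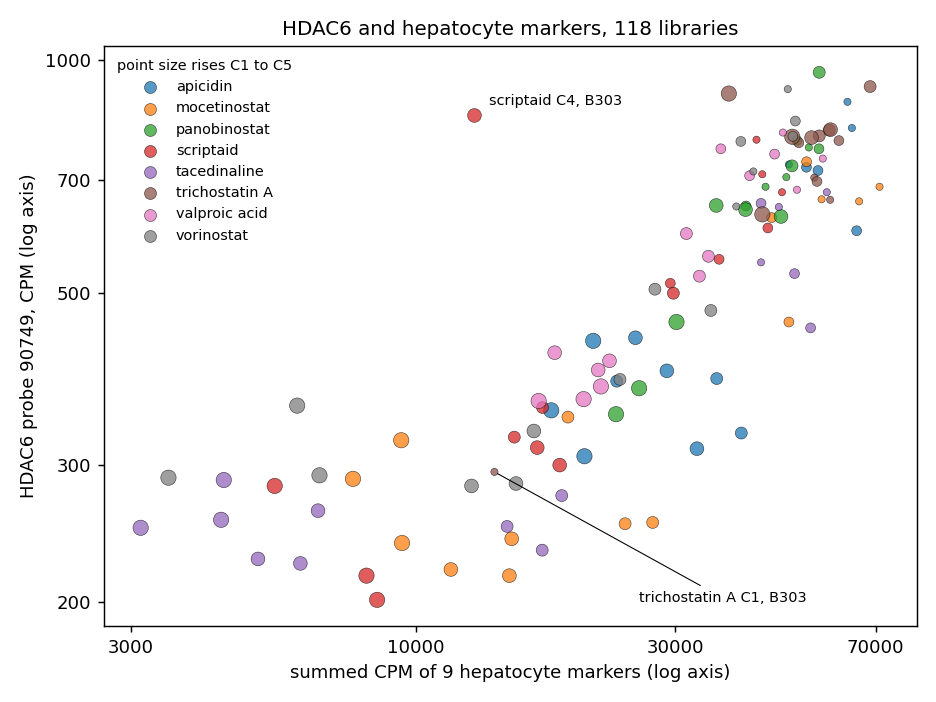
HDAC6_90749 (y axis, CPM, log scale) against the summed CPM of 9 hepatocyte markers (x axis, log scale) in the 118 libraries; colours are chemicals and point size rises from C1 to C5. Libraries low in one value were mostly low in the other, but the falls did not keep step throughout. In tacedinaline the markers fell from 14728 to 18557 CPM at C3 to 3126 to 4443 CPM at C5. HDAC6_90749 held 233 to 274 CPM and 249 to 287 CPM there. In panobinostat both values fell from C4 to C5. Scriptaid C4 of batch B303 (848 CPM of HDAC6_90749 at 12828 CPM of markers) lies away from the rest.

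HDAC9, a class IIa enzyme, was the only member with rising calls at C5. Probe HDAC9_27305 rose in apicidin from 3.99, 4.02 and 5.94 CPM at C1 to 16.6, 19.3 and 19.9 CPM at C5 (4.01-fold, log2 change 2.01, SE 0.408, adjusted p = 0.000761). In mocetinostat it rose from 4.99, 6.81 and 5.4 CPM to 19.3, 16.5 and 15 CPM (3.09-fold, log2 change 1.63, SE 0.43, adjusted p = 0.00875). In tacedinaline it rose from 4.17, 2.66 and 3.93 CPM to 15, 11.4 and 9.48 CPM (3.51-fold, log2 change 1.81, SE 0.542, adjusted p = 0.00596). In all 3, every C5 library lay above every C1 library, which held for 20.5% of all tests. Of features tested in all 8 chemicals, 16% were called higher in at least 3. In the other 5 chemicals the log2 change lay between -0.40 in trichostatin A and 0.52 in vorinostat and was not called.

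The second HDAC9 probe, HDAC9_27304, rose in apicidin from 2.52, 2.13 and 1.08 CPM to 14.5, 15.2 and 7.94 CPM (log2 change 2.68, SE 0.562, adjusted p = 0.00102). In mocetinostat it rose from 1.05, 4.31 and 1.08 CPM to 13.3, 11.4 and 6.12 CPM (log2 change 2.29, SE 0.655, adjusted p = 0.014). In tacedinaline its C5 libraries held 2, 15.5 and 8.25 CPM against 2.5, 6.79 and 6.88 CPM at C1, and the change was not called (log2 0.67, SE 0.619, adjusted p = 0.401). In the other 5 chemicals the log2 change of HDAC9_27304 lay between -0.25 in valproic acid and 1.05 in trichostatin A (0.57 without the C1 library of batch B303) and was not called. Both probes were thus called in apicidin and mocetinostat and 1 of them in tacedinaline, where the difference between the probes was not tested. In mocetinostat both calls were lost without batch B326 (adjusted p = 0.157 for HDAC9_27304 and 0.0711 for HDAC9_27305), and that of HDAC9_27305 also without batch B330 (0.0783); in tacedinaline the call of HDAC9_27305 was lost without batch B330 (0.0722). At C4, 3 HDAC9 tests were called: HDAC9_27304 in apicidin (log2 change 2.32) and mocetinostat (1.99), and HDAC9_27305 in tacedinaline (1.96).

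**Figure D5:**
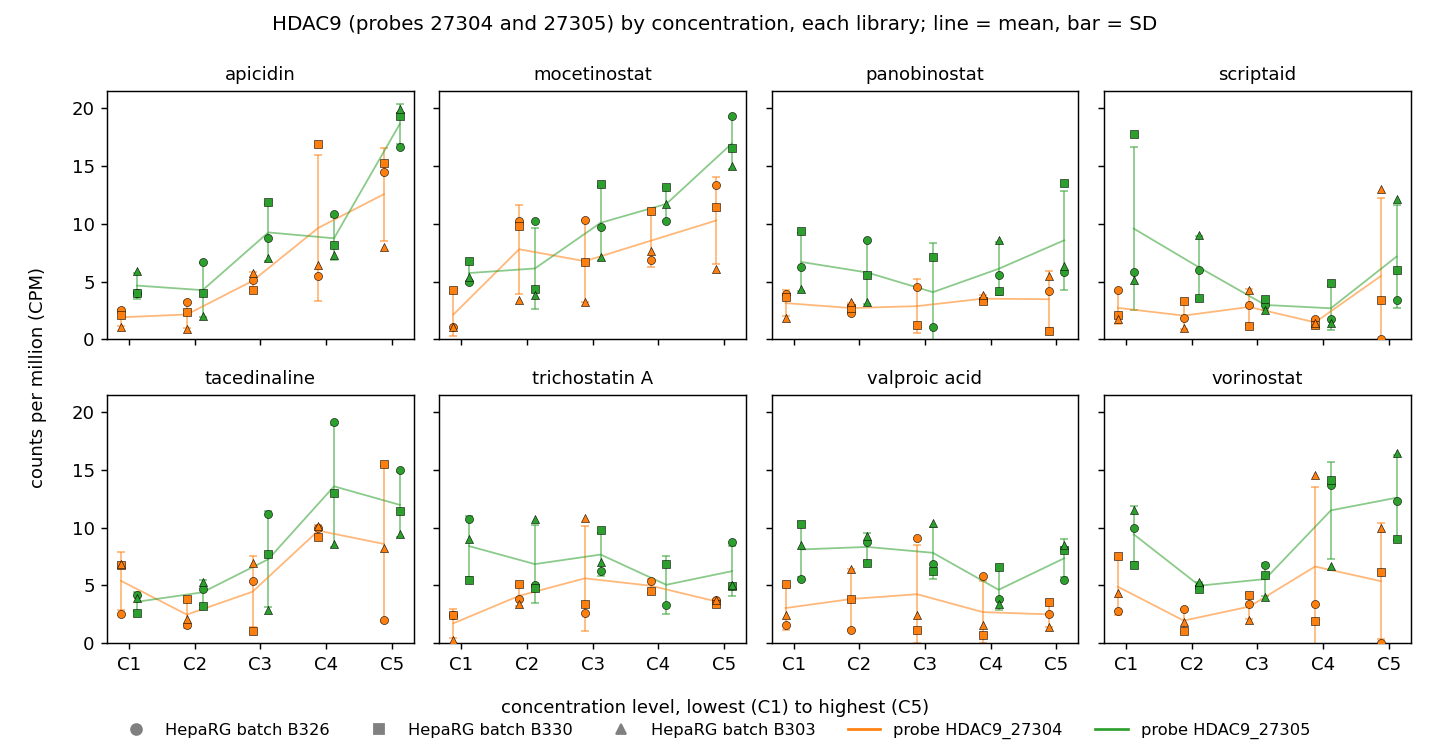
HDAC9_27304 (orange) and HDAC9_27305 (green) in CPM (y axis, from 0, where SD bars are cut off) at C1 to C5 (x axis) in each chemical; points are libraries, shapes HepaRG batches, lines join group means and bars are the SD. HDAC9_27305 reached 15 to 19.9 CPM in the C5 libraries of apicidin and mocetinostat, and 4.93 to 8.74 CPM in those of trichostatin A.

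The change of HDAC9_27305 differed between chemicals in 4 of 28 pairs. Apicidin rose more than scriptaid (difference 2.46, SE 0.657, adjusted p = 0.0127) and than trichostatin A (2.41, SE 0.653, adjusted p = 0.00548). In scriptaid the C1 libraries held 5.84, 17.7 and 5.17 CPM and the C5 libraries 3.4, 5.96 and 12.1 CPM. The scriptaid C1 level thus leaned on the library of batch B330, and the difference without that library alone was not tested. Mocetinostat and tacedinaline also rose more than trichostatin A (1.96, SE 0.65, adjusted p = 0.0186, and 2.16, SE 0.685, adjusted p = 0.0151). Without the 3 libraries that stood apart these 4 were also called, and so were apicidin minus valproic acid (2.12, SE 0.643, adjusted p = 0.0335) and tacedinaline minus valproic acid (1.99, SE 0.678, adjusted p = 0.0365). The benzamides did not differ from each other by the test (mocetinostat minus tacedinaline -0.20, interval -1.50 to 1.11), nor apicidin from mocetinostat (0.45, interval -0.81 to 1.71). The difference between tacedinaline and vorinostat was 1.33 (interval -0.02 to 2.67, adjusted p = 0.432). Against scriptaid, neither mocetinostat (adjusted p = 0.075) nor tacedinaline (0.0806) was called, and neither was against panobinostat (0.252 and 0.215). A separation of the benzamides from the hydroxamates as a class was therefore not shown.

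The features most like HDAC9_27305 over the 40 groups were HES1_2925 (r = 0.830), a Notch target repressor, ZNF841_87518 (r = 0.828), a zinc finger gene, and STARD5_23144 (r = 0.813), a lipid-transfer protein. HDAC9_27304 ranked 517 (r = 0.638).

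HDAC7, a class IIa enzyme known for its part in endothelial cells and thymocytes, was near the counting limit. In scriptaid, HDAC7_22460 had 9, 8 and 27 counts at C1 and 3, 0 and 0 counts at C5, a called fall (log2 change -3.22, SE 1.05, adjusted p = 0.0268). The fitted size rests on 3 counts at C5 and is not a bound. The call was lost without batch B330 (adjusted p = 0.159), without batch B303 (0.17) and when a trend over all 5 concentrations was fitted (0.602). In the other 5 chemicals with a test the log2 change was negative, from -0.08 in trichostatin A (-0.40 without its C1 library of batch B303) to -1.52 in apicidin, and was not called. Every C5 library of apicidin (1.05, 1.71 and 1.99 CPM) lay below its C1 libraries (2.73, 4.49 and 6.75 CPM), and the same separation held in panobinostat and valproic acid. Of all features, 25.4% lay below in this way in apicidin, 21.1% in panobinostat and 16.7% in valproic acid. The scriptaid fall differed from trichostatin A (-3.21, SE 1.11, adjusted p = 0.025), though not without the 3 libraries that stood apart (adjusted p = 0.0595).

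HDAC4 and HDAC5, the remaining class IIa enzymes, were not called at C5 in any chemical by edgeR or DESeq2, and none of their 16 tests passed an unadjusted p under 0.05. Over all features, 1255 of 12993 tests in trichostatin A to 6622 of 11631 in vorinostat passed that p. HDAC4_25787, with 0 to 63 counts per library, had a median log2 change of 0.86, positive in 7 of 8 chemicals, of which trichostatin A (0.44) turned to -0.12 without its C1 library of batch B303. Its highest change was in scriptaid, from 3.07, 3.82 and 2.87 CPM to 8.07, 4.83 and 11.6 CPM (log2 change 1.35, SE 0.817, adjusted p = 0.227), where the groups did not overlap. In scriptaid 24.9% of all features had every C5 library above every C1 library. In vorinostat its C5 libraries spread from 0.585 to 8.08 CPM around C1 levels of 3.26 to 4.43 CPM. HDAC5_91427, with 13 to 94 counts, had log2 changes of -0.10 in trichostatin A (-0.29 without the same library) to 0.62 in tacedinaline. In apicidin its C5 libraries held 18.1, 19.3 and 19.1 CPM, above 11.8, 13.9 and 11.9 CPM at C1 (log2 change 0.60, SE 0.303, adjusted p = 0.146). This separation held for 23.7% of all features in apicidin. In tacedinaline HDAC4_25787 was called higher without batch B303 (log2 change 3.16, adjusted p = 0.0488). At these counts, changes of this size could not be separated from the spread between libraries.

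HDAC10, the second class IIb enzyme, was not called by edgeR with all libraries. HDAC10_22403 had a negative log2 change at C5 in all 8 chemicals, with a median of -0.82, and 3 of 8 tests passed an unadjusted p under 0.05. Over all features, 1255 of 12993 tests in trichostatin A to 6622 of 11631 in vorinostat passed that p. The count of 3 therefore does not set HDAC10 apart from other features. The change nearest to a call was in panobinostat, from 15.4, 8.53 and 18.2 CPM to 7.54, 6.49 and 4.68 CPM (log2 change -1.17, SE 0.407, adjusted p = 0.0503). Its C5 libraries all lay below its C1 libraries, as did those of 21.1% of all features in panobinostat, and DESeq2 called this change (adjusted p = 0.036). In vorinostat the C5 libraries, at 4.91, 5.71 and 5.85 CPM, also lay below those of C1, at 10.5, 9.29 and 13.7 CPM (log2 change -0.91, SE 0.481, adjusted p = 0.113). This separation held for 32.9% of all features in vorinostat. The log2 change passed in apicidin without batch B326 (-1.64, adjusted p = 0.0474), in panobinostat without batch B330 (-1.45, adjusted p = 0.0331) and in tacedinaline without batch B303 (-1.89, adjusted p = 0.0345). The change in valproic acid was -0.02 (SE 0.332) and in trichostatin A -0.12 (SE 0.331), or -0.23 without its C1 library of batch B303.

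HDAC11, the class IV enzyme, was called at C4 in valproic acid. HDAC11_13925 held 8.97, 13.3 and 13.8 CPM at C1 of valproic acid and 25.7, 33.3 and 29.6 CPM at C4 (2.46-fold, log2 change 1.30, SE 0.341, adjusted p = 0.0144), with no overlap. The share of all features without overlap was counted at C5 only. At C5 it held 23.7, 17.8 and 21.7 CPM, still above every C1 library, as held for 16.8% of all features. The C5 change did not pass (log2 change 0.82, SE 0.342, adjusted p = 0.136). None of its 8 tests at C5 was called by edgeR or DESeq2, and 2 passed an unadjusted p under 0.05. The counts over all features at that p are those given for HDAC10 above. In tacedinaline its C5 libraries (8.5, 10.7 and 10.3 CPM) lay below those of C1 (11.7, 19.2 and 20.2 CPM), as held for 27.5% of all features. That change was not called (log2 change -0.76, SE 0.376, adjusted p = 0.1). The changes in tacedinaline and valproic acid differed (-1.64, SE 0.564, adjusted p = 0.0483).

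At lower concentrations the calls lay in HDAC6, HDAC9 and HDAC11. At C2 none of 86 member tests was called by edgeR or DESeq2, 6 passed an unadjusted p under 0.05, and 0.0865% of all tests were called. The share of all tests that passed the unadjusted p was not counted at C2. Without the mocetinostat C2 library of batch B303 that stood apart, HDAC9_27304 (log2 change 2.27, SE 0.645, adjusted p = 0.0127) and HDAC11_13925 (1.22, SE 0.39, adjusted p = 0.0234) were called higher at C2 of mocetinostat. At C3, 8 of 86 member tests were called, all of HDAC6 and all lower, against 5.98% of all tests called in either direction. Without the scriptaid library that stood apart, HDAC6_90749 and HDAC6_91641 (log2 change -0.96, adjusted p = 0.0265) were also called at C3 of scriptaid. At C4, 16 of 86 member tests were called, against 16% of all tests: 12 falls of HDAC6, 3 rises of HDAC9 and the rise of HDAC11.

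The genes around these enzymes were counted from lists of their relatives, partners and substrates, over all probes and all 8 chemicals at C5. The median log2 change of all tests was 0.02, and 11.6% were called higher and 13.4% lower. Of features tested in all 8 chemicals, 11% were called higher in at least 4, 7.13% in at least 5 and 3.32% in at least 6. The features named below were the 3 of each list called in most chemicals, so their counts are high by selection. Of 32 tests of class I deacetylases, 9 were called higher (28.1%) and none lower by edgeR or DESeq2, with a median of 0.35. HDAC3_22727, the catalytic subunit of the NCoR and SMRT corepressors, rose in 5 chemicals (median 1.66, range -0.13 to 2.29). HDAC2_2900 rose in 4 (median 0.70), and HDAC8_22025 was called in none (range -0.82 to 0.65). Of 57 sirtuin tests, 7 were called higher (12.3%, near the share of all tests) and 1 lower (1.75%), with a median of 0.07. SIRT7_88045, a nucleolar deacylase, rose in 4 chemicals (median 0.74) and its second probe SIRT7_90319 in 2 (median 0.38), and SIRT1_21308 fell in 1 (median -0.35).

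MEF2 factors and class IIa corepressor partners went in both directions, with 22 of 119 tests higher (18.5%), 14 lower (11.8%) and a median of -0.09. BCL6_20016, a repressor that recruits class IIa enzymes, rose in 6 chemicals (median 1.11, range -0.69 to 2.66). MEF2D_4115, a MEF2 factor that class IIa enzymes bind, also rose in 6 (median 1.02) and GPS2_19713, a subunit of the corepressor complexes, in 5 (median 1.03). Among kinases that phosphorylate class IIa enzymes, 11 of 104 tests were higher (10.6%) and 5 lower (4.81%), with a median of 0.18. Both were under the shares of all tests. CaM kinase genes differed: CAMK2G_13629 rose in 4 chemicals (median 0.89), CAMK1D_21228 rose in 2 (median 0.84) and CAMK2D_26958 fell in 3 (median -0.69). For 14-3-3 proteins, which hold phosphorylated class IIa enzymes in the cytoplasm, 15 of 80 tests were higher (18.8%) and none lower by edgeR or DESeq2, with a median of 0.24. YWHAG_7814 rose in 5 chemicals (median 1.21), and the YWHAZ probes YWHAZ_92953 and YWHAZ_92949 in 4 and 2 (medians 0.80 and 0.84).

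Of 124 tests of HDAC6 substrates and partners, 27 were higher (21.8%) and 4 lower, with a median of 0.30. ATAT1_15108, the alpha-tubulin acetyltransferase that opposes HDAC6, rose in 5 chemicals (median 1.01, range 0.03 to 1.36). MAP1S_90936, a microtubule-associated protein, rose in 5 (median 0.85). SQSTM1_6740, the autophagy receptor p62, rose in 4 and fell in 1 (median 0.43, range -0.78 to 1.36). Of 107 tests of polyamine metabolism, the pathway of HDAC10 substrates, 22 were higher (20.6%) and 1 lower, with a median of 0.22. Both probes of ODC1, ornithine decarboxylase, rose in 5 chemicals (ODC1_4799 median 2.47, ODC1_11553 median 1.87), and SMOX_27884, spermine oxidase, rose in 3 (median 0.87).

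Markers of other cell types also moved at C5. Biliary and progenitor genes had 11 of 33 tests higher and none lower by edgeR or DESeq2, and SPP1_6720 and SOX9_22075 rose in 5 chemicals each (medians 1.27 and 1.06), whereas KRT19_3690 rose in 1 (median 0.21, range -0.97 to 0.96). Of 34 stromal tests, 7 were higher and 14 lower: COL3A1_28516 and ACTA2_14836 fell in 7 chemicals each (medians -2.45 and -1.52), whereas COL1A1_1466 rose in 6 (median 1.63). Few endothelial and haematopoietic probes passed the filter, with 10 and 8 tests, of which 1 and 2 were lower and none higher. The part of these cell types in the changes of HDAC9 and HDAC6 was not tested.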

How the data were processed

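TempO-Seq libraries of 118 wells were analysed. The authors deposited raw counts per detector probe, as whole numbers with no normalization. Per the submitters' processing notes, bcl2fastq 2.20.422, fastp 0.23.2, STAR 2.7.10b and DESeq2 1.38.0 were used; the counting step and genome build are not given in the sources used here. 1 row, a probe of SEC13 with no value in 88 libraries, was left out.

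Groups and HepaRG batches were taken from the labels. Libraries are wells of 3 cell batches of 1 line, so p-values measure the spread between such wells. For each chemical, edgeR 4.0.16 (R 4.3.3; filterByExpr, TMM, quasi-likelihood F test) was fitted to its 5 concentration groups, and C2 to C5 were compared with C1, two-sided, with Benjamini-Hochberg adjustment over all features tested. Differences between chemicals came from 1 fit of all 40 groups, adjusted over all features within each of the 28 pairs, with 95% intervals from the SE and the normal distribution. Each SE was derived from the log2 change and its F statistic. CPM used TMM over all libraries; likeness used log2 CPM with a prior count of 2. CPM was not compared between probes, whose efficiencies are unknown.

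Named features were every member probe, the 3 features of each pathway list called at C5 in most chemicals, and the 3 features most like a member's brightest probe where that was called in at least 3 chemicals. A few marker genes are not reported here and entered no marker sum or count. The members, lists and tests were chosen with earlier results of these data known. The alternatives were DESeq2 1.42.0, upper quartile scaling, no filter, probes summed per gene, the HepaRG batch as a block, each batch left out, no minimum fold, a trend on log2 concentration, and leaving out trichostatin A C1 of batch B303. Leaving out all 3 libraries that stood apart was added after seeing the data. The labels give the batch of each replicate number, which pairs the libraries; deviations from the group means of the same chemical correlated with a median r of 0.0319 over 232 pairs of the same batch and -0.0123 over 464 pairs of different batches. The fits were tested on simulated data. Figures were drawn with matplotlib.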

Additional observations from a re-analysis of the deposited data

Results flagged for a closer look

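The change at C5 against C1 differed between chemicals, by the test of the difference itself, for 6 probes. HDAC6_90749 differed in 7 of the 28 pairs of chemicals, HDAC6_91698 in 6 and HDAC6_91641 in 5, and each of these pairs included trichostatin A. HDAC9_27305 differed in 4 pairs, 3 of them with trichostatin A and the other between apicidin and scriptaid. HDAC7_22460 differed in 1 pair, scriptaid and trichostatin A, and HDAC11_13925 in 1 pair, tacedinaline and valproic acid. The C1 reference of trichostatin A holds the library of batch B303 that stood apart. Without the 3 such libraries, 23 of 308 differences were called in place of 24, 18 of them with trichostatin A in place of 22.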

How the results depend on the processing

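Of the 23 called changes at C5, all were called in the same direction under DESeq2, with no filter on low counts and with the HepaRG batch as a block, and 22 with upper quartile scaling; none of these 23 reversed under any setting. Uncalled changes of trichostatin A did turn without its C1 library of batch B303: HDAC6_91641 from 0.03 to -0.19, HDAC6_91428 from 0.17 to -0.23, HDAC4_25787 from 0.44 to -0.12 and HDAC11_13925 from -0.48 to 0.03. With the replicate block, 19 falling and 5 rising calls were made at C5, and at C5 the block changed only the call of HDAC6_91428 in tacedinaline. With probes summed per gene, which leaves fewer tests, 9 falling and 3 rising changes were called at C5, 5 changes at C3 and 9 at C4, with 2 at C5 in each of apicidin, mocetinostat and scriptaid and 1 in each of valproic acid and vorinostat. With a trend on log2 concentration, 3 probes were called in scriptaid and 6 in tacedinaline. Without the 3 libraries that stood apart, 2 tests were called at C2.

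Leaving out 1 HepaRG batch at a time gave 12 to 16 falling and 3 to 6 rising calls at C5, 0 to 2 calls at C2, 4 to 9 at C3, 10 to 16 at C4 and 11 to 20 differences between chemicals. By chemical at C5 the calls ranged from 4 to 7 in apicidin, 1 to 4 in mocetinostat, 1 to 3 in panobinostat, 0 to 4 in scriptaid, 2 to 5 in tacedinaline, 2 to 2 in valproic acid, 1 to 2 in vorinostat and 0 to 0 in trichostatin A. Over all features, trichostatin A had 2 calls at C5, 43 with DESeq2, 186 with no filter 8 with the trend, 1 with probes summed or with the block, 284 without batch B303 and 104 without its C1 library of that batch. Scriptaid had 3812, but 1663 with the trend, 1873 without batch B326 and 1516 without batch B330; mocetinostat had 3982, but 1772 without batch B330, and apicidin 3662, but 2281 without batch B303; panobinostat had 2127, but 932 without batch B326 and 1013 without batch B303, and valproic acid 1435, but 457 without batch B326 and 864 without batch B330. The causes were not tested. Counts limit HDAC4, HDAC7, HDAC9 and HDAC6_91428, whose probes had a count of 0 or few counts in some libraries.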
